A study of Arabidopsis thaliana with 38 samples.

Results

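The probe sets examined are those whose leading number lies from 244901 to 245050, the block of the Arabidopsis ATH-1 array designed mainly against the chloroplast and mitochondrial genomes. They number 150 of the 22746 probe sets that are not array controls. The probe table places 77 on chloroplast genes and 13 on mitochondrial genes. It places 5 on nuclear genes of chromosome 2 with AT2G07 locus names, where a copy of mitochondrial DNA lies, and leaves 45 unnamed. The remaining 10 carry chromosome 2 locus names beginning AT2G26, among them YAB5 (a YABBY transcription factor gene) and AR781, so the organelle label does not hold for these 10. Of the 150, 21 have the _s_at suffix, which marks a probe set that can hybridise to more than 1 transcript, including 5 of the 13 mitochondrial and 4 of the 5 AT2G07 probe sets.

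The study compared *A. thaliana* lines with reduced or altered cytosolic HSP90, a chaperone that matures signalling proteins, with controls, using 38 arrays of 35 biological samples from 13 lines. All lines have the Col-0 background, and each sample pooled the aerial tissue of 14-day seedlings grown under long days. In experiment 1, RNAi-A1 and RNAi-A3 (2 samples each) were set against Control-2 (2 samples). In experiment 2, RNAi-A2 (2 samples), RNAi-B1 and RNAi-C1 (3 each) were set against the average of Control-1 and Control-3 (3 each). RNAi-A and RNAi-B hairpins come from different regions of HSP90.1 and the RNAi-C hairpin from HSP90.2, all driven by the constitutive 35S promoter with a GFP spacer, and the control lines carry the GFP fragment without HSP90 sequence. Each RNAi or control line descends from 1 insertion event, so line and insertion cannot be told apart. In experiment 3, single T-DNA insertion lines in each of the genes HSP90.1 (HSP90.1-TDNA), HSP90.2 (HSP90.2-TDNA) and HSP90.3 (HSP90.3-TDNA) were set against wild-type Col-0 (3 samples each). The seed stock named for these Col-0 samples is not the laboratory Col-0 stock from which the RNAi and control lines were made. The point mutant hsp90.2-3, altered in the ATP-binding domain of HSP90.2 (3 samples), was also set against Col-0, but its experiment is not stated, so a batch effect cannot be told apart from the mutation.

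Chloroplast and mitochondrial genomes keep a small set of genes, for subunits of the photosystems, the cytochrome complexes, the ATP synthases and NADH dehydrogenases, for ribosomal proteins and for plastid RNA polymerase, while the other subunits are encoded in the nucleus and imported. Most chloroplast genes are transcribed together with their neighbours and the long precursors are then cut, spliced and edited. Poly(A) tails in plant organelles mark RNA for decay. The usual labelling for this array starts from poly(A) tails (the primer is not given in the sources used here) and then records organelle transcripts only in part, so transcript amount cannot be told apart from tail state in these values. Nor can fewer cells or plastids be told apart from less RNA per cell in whole seedlings.

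The values are MAS5 signals, compared as log2(signal + 16). After 1 failed RNAi-A3 array was left out (r = 0.4995 with the median profile), the 37 kept arrays correlated with that profile at r = 0.9756 to 0.9875, and their median signals were 170.6 to 221.0. A probe set was tested where the mean of at least 1 line exceeded the 35th percentile of all values, which kept 16703 probe sets, among them 122 of the 150 (77 chloroplast, 11 mitochondrial, 3 AT2G07, 6 AT2G26 and 25 unnamed). A change is "called" at an adjusted p under 0.05 in limma, with p-values adjusted over all 16703. The labels do not say that samples of a line were grown separately, so p-values measure the spread between these samples. No probe set is named for a cytosolic HSP90 gene in the probe table, and the targeted transcripts are not analysed here. All 7 nuclear photosystem and antenna genes with a named probe set (of 45 listed) passed the filter. The 2 root marker genes with a named probe set (of 6 listed) were PYK10 (a root beta-glucosidase) and EXPA7 (a root hair expansin). Both also passed the filter, so passing it does not separate leaf from root. Neither was called in any comparison of a line with its controls.

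Few organelle probe sets changed in any HSP90-reduced line. Most of those that did were in RNAi-C1. The chloroplast members as a group lay higher in RNAi-C1, with a median log2 change of 0.47 beside 0.08 over all tested probe sets, and lower in RNAi-A3, with a median of -0.55 beside -0.01. In the other RNAi lines the chloroplast median was 0.02 (RNAi-A1), -0.09 (RNAi-A2) and -0.09 (RNAi-B1). Among the insertion lines the lowest was HSP90.2-TDNA at -0.34, followed by HSP90.3-TDNA at -0.17 and HSP90.1-TDNA at -0.11, and hsp90.2-3 had -0.04. Medians of replicate samples within a line had a pooled SD of 0.275 on the log2 scale (22 degrees of freedom), so of these medians those of RNAi-C1, RNAi-A3 and HSP90.2-TDNA exceed 1 SD of a single sample. This SD is only a rough yardstick, since the changes compare line means and it takes no account of the number of samples.

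**Figure D1:**
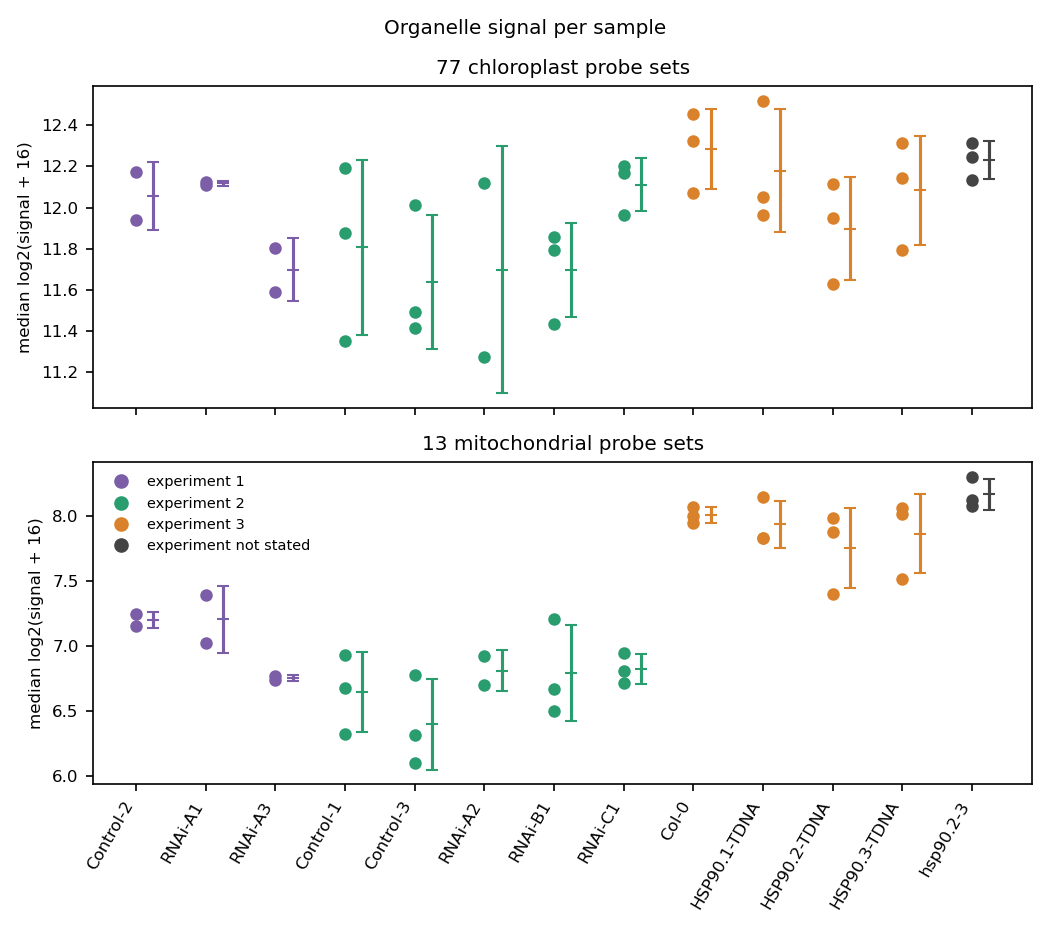
Each point is the median log2(signal + 16) of the chloroplast or the mitochondrial members in 1 of the 35 samples, grouped by line and coloured by experiment. Chloroplast medians of single samples lie between 11.27 and 12.52, and replicates of 1 line can lie almost as far apart as lines do.

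In several lines the replicates moved by organelle as whole sets. In Control-1 the chloroplast sample medians were 11.88, 12.19 and 11.35, and the third sample held the lowest signal of the line for 73 of the 77 chloroplast members. RNAi-A2 had medians of 11.27 and 12.12, and its first sample was the lower for 72 members. In HSP90.3-TDNA the third sample was lowest for 71 members, in Col-0 the third was lowest for 67, and in HSP90.1-TDNA the second was highest for 71. The order was weaker in other lines. In RNAi-A1 the 2 samples were lowest for 42 and 35 members. In RNAi-C1 the second sample was lowest for 43, and in Control-3 the first was lowest for 40. The 77 chloroplast members therefore do not give 77 independent readings of a line.

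The clearest organelle changes were in RNAi-C1. Of the 122 tested members 5 rose and 2 fell, beside a background of 8.25% of all tested probe sets called (4.8% higher and 3.45% lower), so the share called was no larger than the background. Chloroplast members made up 4 of the 5 that rose, and all but 2 of the 77 had a fitted change above 0. At an unadjusted p under 0.05, 34 chloroplast members were higher and 0 lower, where 17% of all tested probe sets were higher (25.6% in either direction). Every RNAi-C1 sample lay above every control sample for 23 of the 77, beside 9.72% of all tested probe sets.

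Among the called genes were those of the plastid ribosome and of photosystem I. For rpl32, a protein of the large plastid ribosomal subunit, the signals in RNAi-C1 were 10620.0, 9997 and 9776. In Control-1 they were 5845, 6671 and 5032, and in Control-3 they were 6991, 7513 and 5194. All RNAi-C1 samples lay well above all control samples, and the change was 0.72 ± 0.17 on the log2 scale (SE), 1.65-fold, with an adjusted p of 0.00876 in limma. Without RNAi-C1 sample 1 the adjusted p was 0.0618.

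For psaJ, a small subunit of photosystem I, RNAi-C1 gave signals of 23482, 20134 and 19083. Control-1 gave 14484, 13872 and 10818, and Control-3 gave 14775, 14378 and 13485. The groups did not overlap, and the change was 0.62 ± 0.17 (adjusted p = 0.0216, limma), a call that was lost without Control-1 sample 3 or without RNAi-C1 sample 1 (adjusted p up to 0.153).

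The other chloroplast calls in RNAi-C1, ndhC and rps14, were lost under more omissions of a sample. For ndhC, a subunit of the NDH complex of cyclic electron flow, signals were 11568, 10518 and 9639 in RNAi-C1. They were 7849, 8232 and 6052 in Control-1 and 8931, 7869 and 7062 in Control-3, so that no sample overlapped. Its change was 0.47 ± 0.13 (adjusted p = 0.0308, limma), and was no longer called without any 1 of 5 samples (Control-1 sample 3, Control-3 samples 2 and 3, and RNAi-C1 samples 1 and 2), the highest adjusted p being 0.184.

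For rps14, a small-subunit ribosomal protein with low signal, RNAi-C1 gave 163.3, 127.0 and 117.1. Control-1 gave 112.2, 113.1 and 79.8, and Control-3 gave 36.0, 95.8 and 33.5. The groups did not overlap, although the lowest RNAi-C1 sample lay close to the highest control sample. The change of 0.78 ± 0.24 (adjusted p = 0.0412, limma) was kept without Control-1 sample 1 or Control-3 sample 2, and was lost without any 1 of the other 7 samples (adjusted p up to 0.229).

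**Figure D2:**
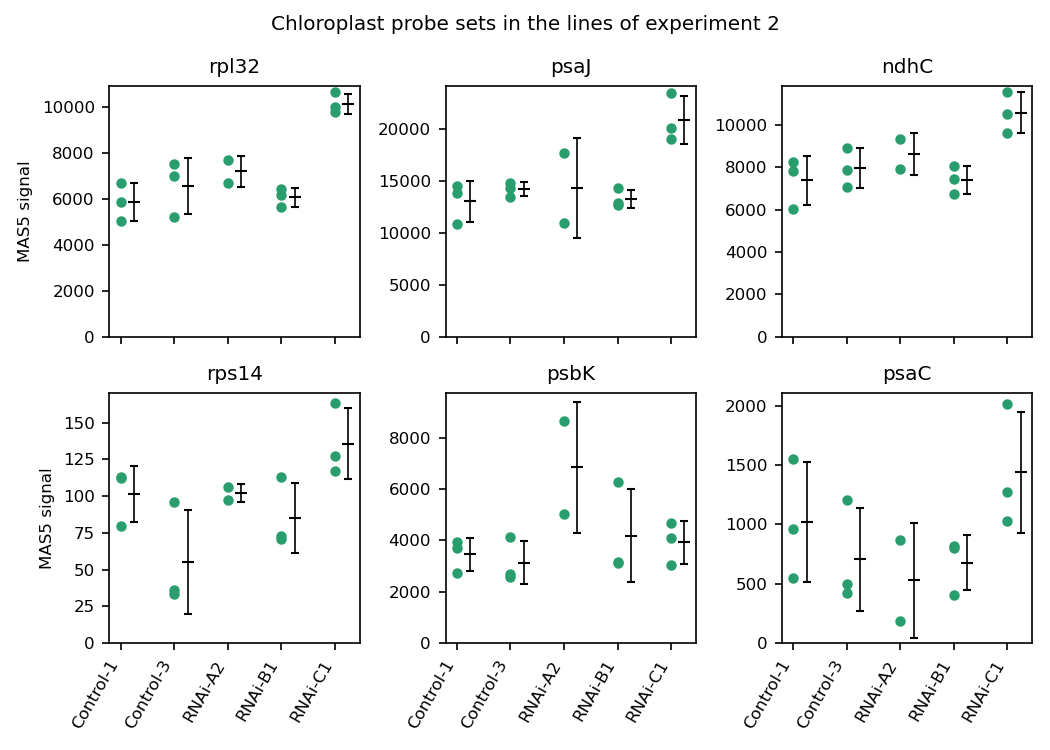
MAS5 signal on a linear axis from 0 for 6 chloroplast probe sets in the lines of experiment 2, with a point for each sample and the mean ± SD beside it. RNAi-C1 stands above all other lines for rpl32, psaJ and ndhC, RNAi-A2 stands highest for psbK with its 2 samples far apart, and psaC was called only between RNAi-C1 and the other RNAi lines.

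The shift in RNAi-C1 ran through nearly all chloroplast gene families. All 20 ribosomal protein members had a change above 0 (median 0.47, of which 2 were called), as had all 15 of photosystem II (median 0.49), all 5 of photosystem I (0.52), all 6 of the cytochrome b6f complex (0.43) and all 6 of the ATP synthase (0.44). Among NDH complex members 10 of 11 were above 0 (median 0.40), and among plastid RNA polymerase subunits 3 of 4 (median 0.36). The gene for the Rubisco large subunit, rbcL, had a change of 0.49. Mitochondrial members also lay above 0 in 12 of 13 cases, with a median of 0.24, and none of the 11 tested was called (2 higher and 0 lower at an unadjusted p under 0.05).

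With each array centred on the median of the other probe sets, the median over all tested probe sets in RNAi-C1 went from 0.08 to -0.04, the chloroplast median to 0.35 and the members called to 2 higher and 2 lower, while the distance between both medians hardly moved. The RNAi-C1 samples also stood apart in the actin 5′ minus 3′ difference of the array controls, a measure of RNA and labelling integrity, at -2.60, -2.57 and -2.58 on the log2 scale, against -1.60 to -2.07 in the 6 control samples. Its part in the RNAi-C1 values was not tested.

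The other members called in RNAi-C1 were not named organelle genes. YAB5 lies in the AT2G26 series and marks the lower side of the leaf. Its signals were 355.8, 302.0 and 360.8 in RNAi-C1. They were 530.2, 497.1 and 509.1 in Control-1 and 493.4, 431.5 and 446.7 in Control-3. All RNAi-C1 samples were below all controls, and YAB5 fell by 0.49 on the log2 scale (SE 0.10, adjusted p = 0.00307, limma), a call kept under all 9 omissions of a sample.

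The unnamed probe set 245028_at rose by 0.54 ± 0.074 (adjusted p = 3.99e-05, limma) and was also called under all 9 omissions. Its signals were 708.8, 527.1 and 563.2 in RNAi-C1 and between 374.1 and 433.7 in the 6 control samples, with no overlap. The unnamed probe set 245042_at fell by 0.31 (adjusted p = 0.0417, limma), with RNAi-C1 at 687.9, 708.1 and 746.1 and the lowest control at 764.8, and was lost in 6 of 9 omissions (Control-1 sample 3, Control-3 samples 2 and 3, and each RNAi-C1 sample), with adjusted p up to 0.188.

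The nuclear partners of these genes showed little in RNAi-C1. The 7 tested nuclear photosystem and antenna genes had a median of 0.00, with 0 called, and the 9 tested nuclear respiratory chain genes a median of -0.13, with 0 called. The single tested gene among 7 listed organelle RNA decay enzymes, mtPNPase (the mitochondrial polynucleotide phosphorylase, which degrades polyadenylated RNA), rose by 0.46 ± 0.14 (adjusted p = 0.047, limma). The change of mtPNPase was 0.391 and not called in RNAi-A3, where the chloroplast members lay lower. It was 0.63 and called in Col-0 against the experiment 2 controls. Its relation to the organelle values was not tested.

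**Figure D3:**
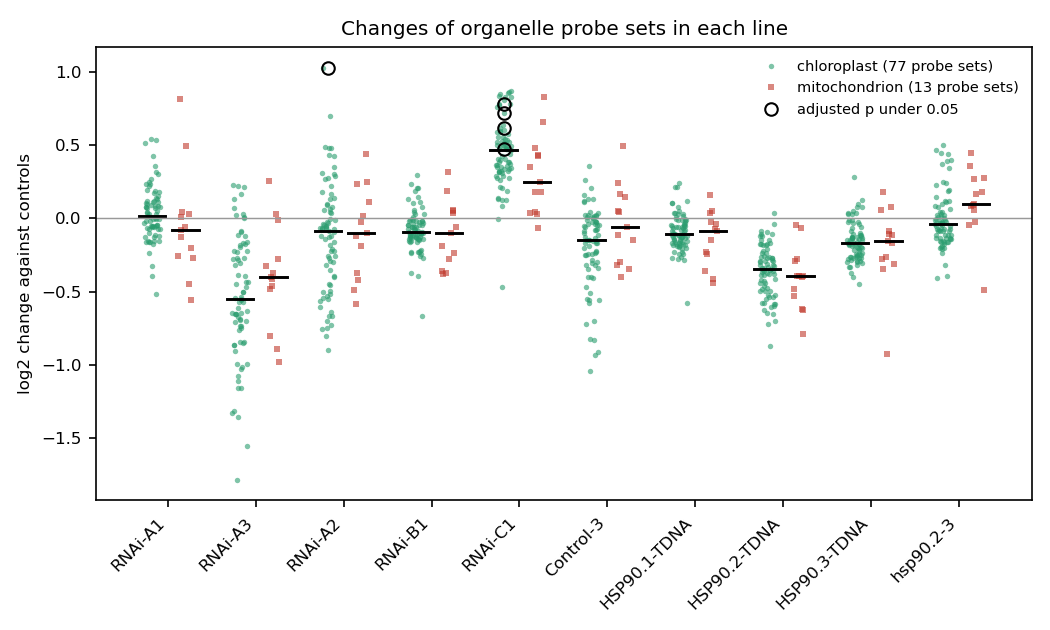
Log2 change of each chloroplast and mitochondrial member in each line against the controls of its experiment, with the median marked. The RNAi-C1 chloroplast values centre on 0.47, those of RNAi-A3 on -0.55 and those of HSP90.2-TDNA on -0.34.

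RNAi-C1 was then set directly against the other RNAi lines of its experiment, the mean of RNAi-A2 and RNAi-B1. Of the 122 tested members 11 were higher and 3 lower in RNAi-C1, with 7.7% of all tested probe sets called. Chloroplast members had a median difference of 0.58 beside 0.05 over all tested probe sets, and 7 of them were called higher, psaC, rpoC2, ycf2, psaI, rpl32, psaJ and petB. For psaC, the iron-sulphur subunit of photosystem I, signals were 1273, 1029 and 2013 in RNAi-C1. They were 184.4 and 872.3 in RNAi-A2 and 804.3, 820.6 and 409.7 in RNAi-B1, all below RNAi-C1, and the difference was 1.4 (SE 0.39, adjusted p = 0.0289, limma). That call was lost without RNAi-A2 sample 1, RNAi-B1 sample 3, or RNAi-C1 sample 1 or 3 (adjusted p up to 0.174).

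The plastid RNA polymerase subunit gene rpoC2 showed the same separation of lines. Its signals were 1736, 1211 and 1649 in RNAi-C1, 525.6 and 879.1 in RNAi-A2, and 842.9, 945.0 and 540.5 in RNAi-B1. The groups did not overlap, and the difference was 1.06 ± 0.31. Its call was lost without the same 4 samples as that of psaC (adjusted p up to 0.147).

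The calls outside the chloroplast included AT2G07751 of chromosome 2 and the mitochondrial mttB. For AT2G07751, a chromosome 2 copy of a mitochondrial gene, signals were 222.7, 168.8 and 193.5 in RNAi-C1, 87.2 and 131.7 in RNAi-A2, and 148.9, 137.9 and 70.9 in RNAi-B1. RNAi-C1 was above both other lines in every sample, with a difference of 0.73 ± 0.17, a call that ended without RNAi-A2 sample 1 or RNAi-C1 sample 1 (adjusted p up to 0.0793). For mttB, a membrane transporter gene of the mitochondrion, signals were 359.4, 283.9 and 392.4 in RNAi-C1 and from 119.1 to 296.5 in the other 5 samples, so that 1 RNAi-B1 sample overlapped.

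In RNAi-A3 no member was called (0 of 122; background 0.012%), although its chloroplast values were the lowest relative to controls of all lines. At an unadjusted p under 0.05 limma gave 3 members higher and 19 lower, where 5.53% of all tested probe sets passed in either direction, and the methods' t-test with 1.5-fold gave 1 (background 0.299%). The study's methods chose between this t-test and an ANOVA by whether an experiment had technical replicates, and experiment 1 had them. For 51 of the 77 chloroplast members both RNAi-A3 samples lay below both Control-2 samples, beside 18.7% of all tested probe sets. The chloroplast sample medians were 11.59 and 11.81 in RNAi-A3 against 12.17 and 11.94 in Control-2, and did not overlap.

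The 2 tested members of largest change in RNAi-A3 were ndhF and ycf3. For ndhF, an NDH complex subunit, signals were 2.9 and 8.6 in RNAi-A3 against 84.7 and 38.9 in Control-2, all under the filter level, with a change of -1.78 ± 0.44 (adjusted p = 0.293, limma). This gene was tested only because of its higher signal in experiment 3 and hsp90.2-3. For ycf3, an assembly factor of photosystem I, signals were 204.7 and 387.9 against 1079 and 686.3, with a change of -1.55 (adjusted p = 0.628). In both genes the groups were fully separated, and neither passed the test.

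The size of the RNAi-A3 values differed with signal level. Among the 25 chloroplast members of lowest mean signal the median was -0.85 and all 25 were below 0. The 26 of middle level had a median of -0.55 and the 26 of highest level -0.27, where 19 were below 0. In RNAi-C1 the corresponding medians were 0.48, 0.46 and 0.36. The order was not particular to RNAi-A3. It was also seen in RNAi-A2 (-0.402, -0.145 and 0.058) and in Control-3 against Control-1 (-0.253, -0.136 and -0.041). The medians fell with level in HSP90.3-TDNA (-0.1, -0.177 and -0.192) and hsp90.2-3 (0.081, -0.068 and -0.134). By family the RNAi-A3 medians ran from -0.75 for the NDH complex (10 of 11 below 0) and -0.57 for photosystem I (5 of 5) to -0.47 for the 5 other enzymes.

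RNAi-A1, from the same hairpin construct and experiment, had chloroplast sample medians of 12.11 and 12.12, close to Control-2. No member was called in RNAi-A1 (background 0.00599%), with 0 higher and 1 lower at an unadjusted p under 0.05 (background 4.28%) and 0 by the methods' t-test with 1.5-fold (background 0.269%). Its largest change among tested members was in the unnamed probe set 245038_at, at 228.5 and 387.7 against 880.0 and 711.7 in Control-2, a change of -1.36 (adjusted p = 1), and ndhH was at 0.54. Set directly against RNAi-A1, RNAi-A3 had a chloroplast median difference of -0.59, with 73 of 77 below 0, and 0 members called (background 0.012%), with 2 higher and 21 lower at an unadjusted p under 0.05 in limma (background 7.16%) and 3 lower by the methods' t-test with 1.5-fold (background 0.509%). The deposited 25S rRNA control signal was 208.8 and 351.0 in RNAi-A3 and 208.3 and 218.7 in Control-2, and its part was not tested.

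RNAi-A2 and RNAi-B1 each had 1 called member. In RNAi-A2 it was psbK, a small subunit of photosystem II (background 0.928%), with signals of 5049 and 8658 in RNAi-A2. In Control-1 the signals were 3942, 3694 and 2731 and in Control-3 2585, 4119.7 and 2712, so the groups did not overlap. The change was 1.03 ± 0.25 (adjusted p = 0.0445, limma), and was lost without any 1 of 6 samples (Control-1 samples 2 and 3, Control-3 samples 1 and 3, and each RNAi-A2 sample), with adjusted p up to 0.495. The chloroplast median of RNAi-A2 was -0.575 without sample 2 and 0.352 without sample 1, so the direction of that median rested on which sample was kept.

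In RNAi-B1 the unnamed probe set 245035_at rose (background 1.02%), with signals of 182.8, 349.4 and 256.6 against 159.3, 96.4 and 115.2 in Control-1 and 95.5, 96.5 and 108.2 in Control-3. All RNAi-B1 samples were above all controls, and the change was 1.1 (SE 0.26) (adjusted p = 0.0353, limma). It was lost in 7 of 9 omissions (Control-1 samples 2 and 3, each Control-3 sample and RNAi-B1 samples 2 and 3), with adjusted p up to 0.247.

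Control-3 differed from Control-1 at no tested member (background 0.0419%), with 6 higher and 6 lower at an unadjusted p under 0.05 in limma (background 6.77%) and 1 by the methods' t-test with 1.5-fold (background 0.964%). Its chloroplast median was -0.15 and reached -0.46 without Control-1 sample 3. The largest changes among tested members were in the unnamed probe set 244990_s_at (1.13) and in psaA, a core protein of photosystem I (-1.04), neither called.

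The T-DNA lines showed no called member. In HSP90.2-TDNA 76 of the 77 chloroplast members and all 13 mitochondrial members had a change below 0, with medians of -0.34 and -0.40 beside -0.03 over all tested probe sets. None of the 122 was called (background 0.00599%), while 0 were higher and 10 lower at an unadjusted p under 0.05 in limma (7.17% of all tested probe sets in either direction), and the methods' t-test with 1.5-fold gave 2 (background 0.383%). All HSP90.2-TDNA samples lay below all Col-0 samples for 15 of the 77 chloroplast members, beside 6.04% of all tested probe sets. The 25S rRNA control signal was 247.5, 87.2 and 132.6 in HSP90.2-TDNA and 1451, 362.2 and 115.6 in Col-0, overlapping, and its part was not tested.

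The largest changes among tested members in HSP90.2-TDNA were in the unnamed probe set 244904_at (-1.08, adjusted p = 0.603) and in rbcL (-0.87, adjusted p = 0.819). The rbcL signals were 6350, 2058 and 2362 in HSP90.2-TDNA and 8472, 8027 and 2804 in Col-0, so that the lines overlapped widely. The third Col-0 sample was low like most of the T-DNA samples, and the first T-DNA sample lay nearer the other Col-0 samples.

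HSP90.1-TDNA had 0 called members (background 0.0239%), with 1 higher and 0 lower at an unadjusted p under 0.05 in limma (background 7.45%) and 0 by the methods' t-test with 1.5-fold (background 0.323%). Its largest values among tested members were 1.0 for AR781 (adjusted p = 0.399) and -0.58 for petG, a small cytochrome b6f subunit. HSP90.3-TDNA also had 0 (background 0.0898%), with 0 higher and 2 lower at an unadjusted p under 0.05 in limma (background 9.07%) and 0 by the methods' t-test with 1.5-fold (background 0.772%). Its largest values among tested members were 245038_at at 0.62 and atpI, a membrane subunit of the ATP synthase, at -0.45.

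In the point mutant hsp90.2-3 the organelle genes stayed near Col-0, with 1 called member of 122 where 8.77% of all tested probe sets were called. The chloroplast median was -0.04 and the mitochondrial median 0.10. The member called was the unnamed probe set 245038_at, at 1148, 1048 and 1322 against 679.1, 342.3 and 403.9 in Col-0. All mutant samples were above all Col-0 samples, and the change was 1.33 ± 0.42 (adjusted p = 0.049, limma). It was lost in 5 of 6 omissions (Col-0 samples 2 and 3 and each mutant sample), with adjusted p up to 0.187.

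Some nuclear photosystem and antenna genes were lower in the same mutant than in Col-0. Of the 7 tested (of 45 listed), 4 were called lower and 0 higher, where 8.77% of all tested probe sets were called. Their median was -0.29 beside -0.03 over all tested probe sets. Those called were LHCB4.2 (-0.37, adjusted p = 0.0192, limma) and LHCB4.1 (-0.32, adjusted p = 0.0424), minor antenna proteins of photosystem II, PSBY (-0.31, adjusted p = 0.0357), a small photosystem II protein, and PSAE-1 (-0.29, adjusted p = 0.0311), a photosystem I subunit. The same 7 nuclear genes differed more between control lines. In Control-2 against the experiment 2 controls 7 were lower and 0 higher (median -0.52). In Col-0 against Control-2 6 were higher and 0 lower (median 0.55), and against the experiment 2 controls 1 was higher and 1 lower (0.01). A batch effect cannot be told apart from the mutation here. Among the 77 chloroplast probe sets none was called in hsp90.2-3 (0 higher and 2 lower at an unadjusted p under 0.05, beside 22.3% of all tested probe sets), and the difference between the nuclear and the chloroplast genes was not tested.

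Set directly against HSP90.2-TDNA, the other HSP90.2 line, hsp90.2-3 had a chloroplast median difference of 0.32 (68 of 77 above 0) and a mitochondrial one of 0.56 (13 of 13 above 0). The 25S rRNA control signal was 386.3, 469.9 and 480.9 in hsp90.2-3, all above HSP90.2-TDNA, and its part was not tested. None of the 122 was called (background 2.97%), with 22 higher and 2 lower at an unadjusted p under 0.05 in limma (background 17%) and 5 higher by the methods' t-test with 1.5-fold (background 1.8%). For rbcL the mutant signals were 7918, 8749 and 7314, all above the HSP90.2-TDNA samples, and the difference was 1.34 (adjusted p = 0.309). For psbA, the D1 protein of the photosystem II reaction centre, the mutant had 15966, 13820 and 17315 and HSP90.2-TDNA 11900, 3782 and 8392, without overlap, with a difference of 1.11 (adjusted p = 0.527).

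Differences between experiments were far larger than those between lines. To describe them, the control lines were compared with each other, a comparison added after the values were seen. Wild-type Col-0 of experiment 3 differed from the controls of experiment 2 (Control-1 and Control-3 averaged) at 76 of the 122 tested members, 57 higher and 19 lower, where 39.3% of all tested probe sets were called. By genome, 34 chloroplast members were higher and 16 lower (64.9% called) and 6 mitochondrial members were higher and 1 lower (63.6%). A member low in experiments 1 and 2 could pass the filter through its height in experiment 3 or hsp90.2-3 alone. That favours calls higher in Col-0, and it was so for ndhF and cox2. In comparisons with Col-0, experiment, the transgene in the control lines and the Col-0 seed stock cannot be told apart. Control-2 and the experiment 2 controls all carry the GFP fragment, and there experiment and insertion line cannot be told apart.

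The sizes were also of another order. Of the chloroplast members, 16 differed by more than 2 on the log2 scale. The share of all tested probe sets beyond 2 was not computed, so this count has no background. The largest were ndhF (5.36, 41.1-fold, adjusted p = 1.55e-11, limma), psbB, a core antenna protein of photosystem II (5.07, 33.5-fold), psaA (3.90), petN of the cytochrome b6f complex (3.70) and rpoB of the plastid RNA polymerase (3.25). Since ndhF was tested only through lines where it is high, its p-value is no separate support. Lower in Col-0 were psbC, another core antenna protein (-2.27), ycf1 (-2.26), rps4 (-1.23), the mitochondrial ccmFN1 for cytochrome c maturation (-1.13) and atpH (-1.06).

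Over all samples rather than controls alone, psbB signals ranged from 399.7 to 2207 in experiment 1 (median 1455, 6 samples) and from 304.5 to 1915 in experiment 2 (median 1172, 14 samples). In experiment 3 they ranged from 21395 to 35489 (median 24557, 12 samples). The hsp90.2-3 samples, at 21578, 24641 and 22595, lay within the range of experiment 3 and outside the ranges of the others. The same held for ndhF, which was at 19.3 to 115.5 in experiment 2, at 1886 to 3084 in experiment 3 and at 2534, 2329.9 and 2922 in hsp90.2-3.

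Not every experiment paired the same way. For psaA, the Col-0 signals of 10136, 9719.9 and 8349 and the Control-2 signals of 8117 and 9963 overlapped, while Control-1 was at 891.0, 1494 and 524.9 and Control-3 at 275.0, 622.1 and 441.4. Control-2 exceeded the experiment 2 controls by 3.84 for psaA (adjusted p = 8.29e-08, limma) and Col-0 differed from Control-2 by 0.06. Over all members, Col-0 was called higher than Control-2 at 32 and lower at 18 (29.3% of all tested probe sets called), and Control-2 higher than the experiment 2 controls at 25 and lower at 3 (34.9%).

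**Figure D4:**
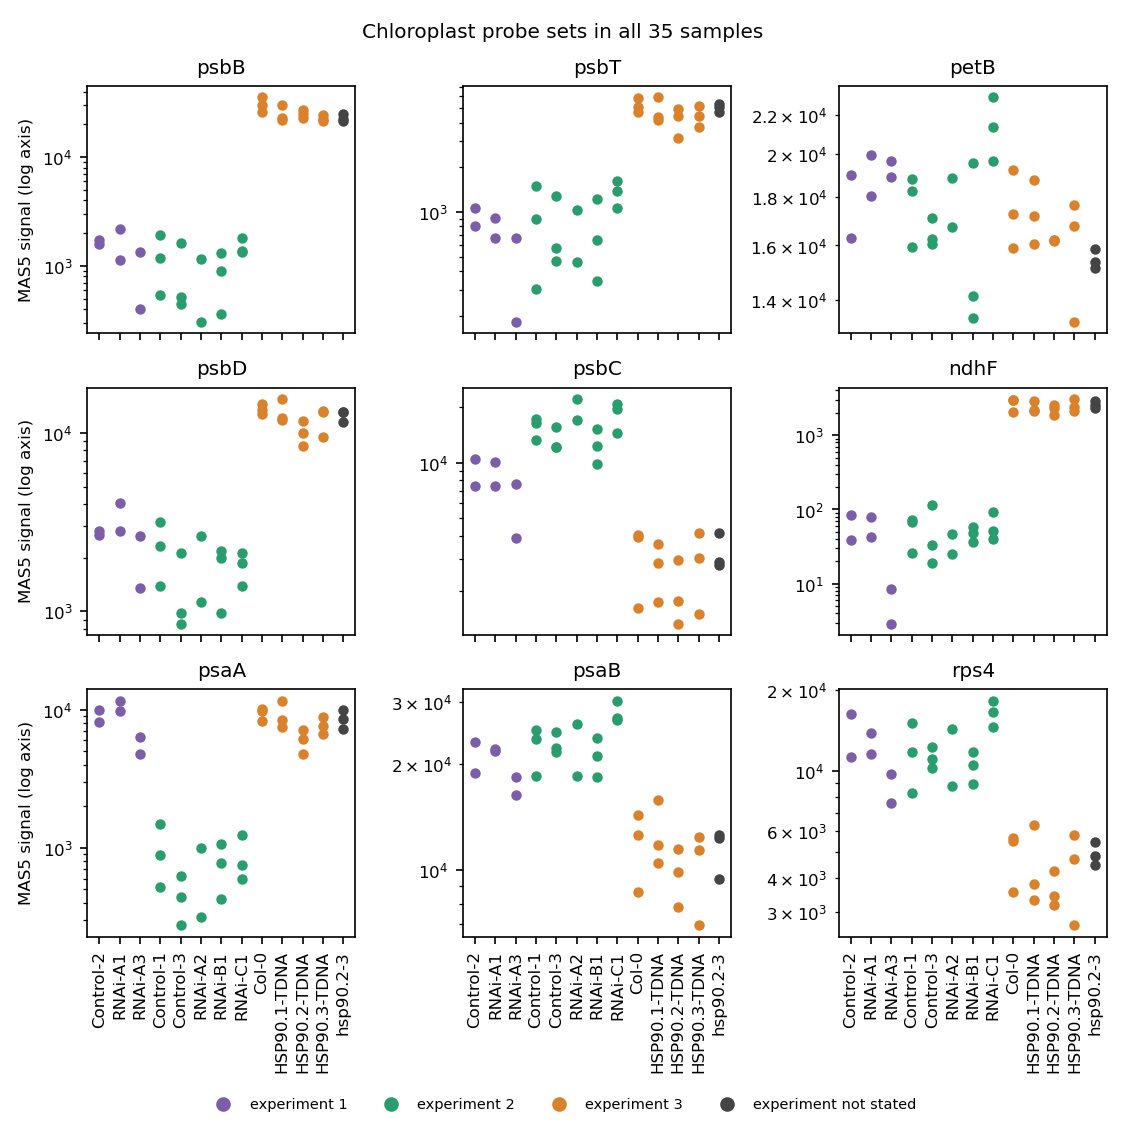
Signal on a log axis for organelle probe sets in every sample, grouped by experiment, with hsp90.2-3 shown separately. For psbB and ndhF all experiment 3 samples lie far above all of experiment 2, while for psaA experiment 2 alone is low.

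In several transcription units, genes that neighbour each other differed between experiments by unlike amounts. These units were chosen after the values were seen. In the unit psbB, psbT, psbH, petB, petD, Col-0 differed from the experiment 2 controls by 5.07, 2.82, 0.79, 0.03 and 2.1 on the log2 scale, all called except petB. In psbD and psbC, whose reading frames overlap in plant chloroplasts, the differences had opposite signs, 3.06 and -2.27, both called. In psaA, psaB and rps14 they were 3.90, -0.95 and 0.92, and in rpoB, rpoC1 and rpoC2 they were 3.25, -0.78 and -1.05, again all called. In atpI, atpH, atpF and atpA they were 3.12, -1.06, 1.34 and -0.25, all called except atpA. In psbE, psbF, psbL and psbJ all were positive, at 2.55, 1.53, 0.34 and 0.59, and all were called except psbL. In ndhC, ndhK and ndhJ they were 0.20, 0.60 and 0.17, none called.

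Mitochondrial members showed the same kind of separation. For nad6, a complex I subunit, signals were 73.8 to 94.2 in experiment 1, 35.7 to 93.9 in experiment 2 and 341.2 to 797.1 in experiment 3. For cox2, a subunit of cytochrome c oxidase, they were 34.2 to 107.1 in experiment 2 and 153.1 to 458.2 in experiment 3, and both genes had no overlap between these experiments. The Col-0 difference from the experiment 2 controls was 3.04 for nad6 (adjusted p = 1.46e-10, limma). All experiment 3 samples lay above all experiment 2 samples for 19 of the 77 chloroplast members (24.7%) and 4 of the 13 mitochondrial ones, and below them for 9 chloroplast members (11.7%), against 2.86% and 2.09% of all 22746 probe sets.

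The 25S rRNA control probe set, a ribosomal RNA of the cytosol without a regular poly(A) tail, varied as well. Its signals were 159.7 to 351.0 in experiment 1 (median 213.7), 28.0 to 271.3 in experiment 2 (median 72.0) and 69.6 to 1451 in experiment 3 (median 217.5), with hsp90.2-3 at 386.3 to 480.9. Within experiment 3 it ran with the chloroplast sample median at Pearson's r = 0.791 and Spearman's rho = 0.909 over 12 samples, and with the mitochondrial one at r = 0.74 and rho = 0.888. Without the 2 samples farthest from the median rRNA level, r was 0.72 and 0.764. In experiment 2 (14 samples) r was 0.47 and 0.37, and 0.41 and 0.279 without the 2 farthest samples. In experiment 1 (6 samples) it was -0.349 and -0.691, and 0.412 and 0.187 without the 2 farthest samples, so that its negative sign rested on those 2 samples. These coefficients are given as a description, with no p-value, since the values share an array and its scaling.

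**Figure D5:**
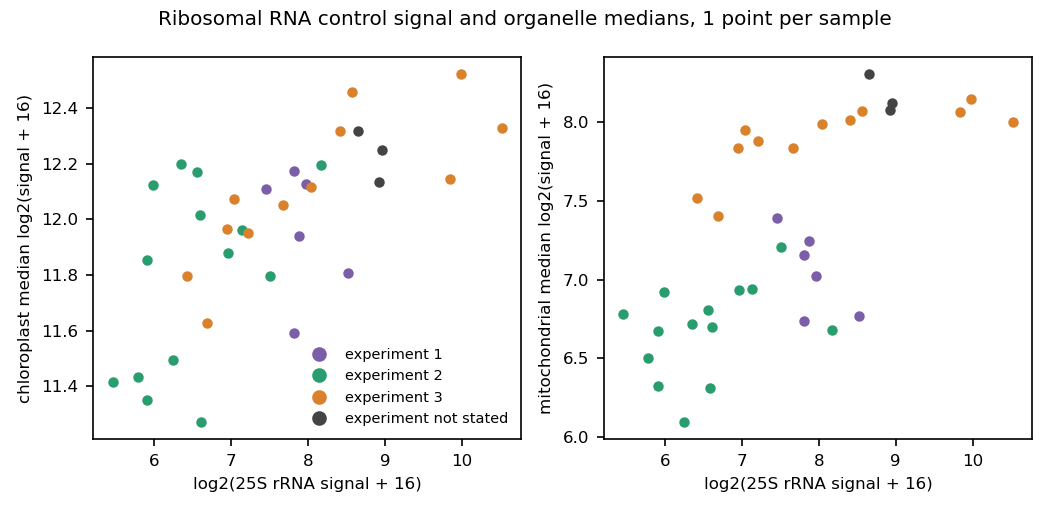
Median log2(signal + 16) of the chloroplast and mitochondrial members against the log2 25S rRNA signal, 1 point a sample, coloured by experiment. The points of experiment 3 rise together (r = 0.791 for the chloroplast), while r in experiment 1 is -0.349 with all 6 samples and 0.412 without the 2 farthest.

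In the actin 5′ minus 3′ difference experiment 1 stood apart, at -0.36 to -0.70, while experiment 2 (-1.60 to -2.60) and experiment 3 (-1.60 to -2.48) overlapped. Its part in the differences between experiments was not tested. Every line except hsp90.2-3 was set against controls stated to be of its own experiment.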

How the data were processed

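The authors hybridised ATH-1 arrays and deposited 1 linear intensity per probe set and array. The submitters' notes name MAS5, while the study's methods name PLIER; trimmed means of 499.75 to 499.89 on all 38 arrays show MAS5 scaling. Genes came from a platform table for probe sets with a single gene, except among the members. There 8 chloroplast and 1 mitochondrial named probe sets had several gene entries. The deposited intensities were compared as log2(signal + 16), technical replicates were averaged, and 64 array control probe sets and 1 failed array were left out. Tests covered probe sets for which any line averaged above the 35th percentile of the values. A mean per line was fitted over 13 lines and 35 samples with limma 3.58.1 in R 4.3.3 (22 residual and 3.26 prior degrees of freedom), with Benjamini-Hochberg adjustment over 16703 probe sets, and each line was set against the controls of its experiment. The code was tested on simulated data. The methods' t-test (unadjusted p under 0.05 with 1.5-fold) was an alternative. Here it is Welch's t-test on the values above for every comparison. The study used PLIER values, and its methods also name an ANOVA for experiments with technical replicates.

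The members and gene lists were chosen with earlier results of these data known. Members were named by size among those called without overlap between samples (up to 5 in each direction), or as the 2 tested members of largest change where none was called. The control-line comparisons, transcription units, and the genes named in them were chosen after their values were seen. RNAi-A2 has 2 samples here, while the methods state 3. Without counts, the number of arrays limits the precision. No sequences are shown.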

Additional observations from a re-analysis of the deposited data

Results flagged for a closer look

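The test of RNAi-C1 against the mean of RNAi-A2 and RNAi-B1, lines that share the same controls, found 14 members whose difference between these lines was itself past the threshold (adjusted p under 0.05 in limma). The log2 differences of the chloroplast members were 1.4 for psaC, 1.06 for rpoC2, 0.89 for ycf2, 0.65 for psaI (where 1 RNAi-A2 sample overlapped), 0.62 for rpl32, 0.61 for psaJ and 0.36 for petB. Those of the mitochondrial mttB and of AT2G07751 were 0.83 and 0.73. Those of the unnamed probe sets 244921_s_at, 245028_at, 245042_at and 245038_at were 0.55, 0.30, -0.40 and -1.25, and that of YAB5 was -0.43. For 245038_at the signals were 482.3, 410.8 and 426.6 in RNAi-C1, 1051 and 1147 in RNAi-A2, and 1029.5, 1084 and 1014 in RNAi-B1, yet its call was lost in all 8 omissions of a sample (adjusted p up to 0.109). YAB5 was lost only without RNAi-C1 sample 2 (adjusted p = 0.0746). The other calls were lost in 2 to 7 of the 8 omissions.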

How the results depend on the processing

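No value called for a line against its controls, or for RNAi-C1 against the other RNAi lines, changed sign under any setting tried. Signs were not followed for the calls between control lines of different experiments. Of the settings that moved a count of called members by over 1.5 times, quantile normalization gave 0 for RNAi-B1, 7 for RNAi-C1 against RNAi-A2 and RNAi-B1, and 1 for hsp90.2-3 against HSP90.2-TDNA. Over all tested probe sets it called 104, 1145 and 509 there. Centring each array gave 0 for RNAi-A2, RNAi-B1 and hsp90.2-3, 4 for RNAi-C1 and 8 for RNAi-C1 against the other RNAi lines (5 higher and 3 lower), and turned the split of Control-2 against the experiment 2 controls from 25 higher and 3 lower to 14 and 11 (19 and 7 under quantile normalization), while its median over all tested probe sets went from 0.14 to -0.10. For hsp90.2-3 the count was 0 with an offset of 4, without the filter, with only the first technical replicate and with the failed array, and for hsp90.2-3 against HSP90.2-TDNA it was 1 with an offset of 64 and with a filter at the 50th percentile. Without the filter RNAi-A2 and RNAi-B1 also had 0. With the failed array, RNAi-A3 had 12 and RNAi-A3 against RNAi-A1 17, RNAi-B1 0, RNAi-C1 4 and RNAi-C1 against the other RNAi lines 3. Fitting only the lines compared gave 3 for RNAi-B1, 7 for RNAi-C1 against the other RNAi lines and 18 for Control-2 against the experiment 2 controls. With centring, the calls over all tested probe sets were 1585 for RNAi-C1 and 1260 for RNAi-C1 against the other RNAi lines. Apart from quantile normalization and centring, the number called over all probe sets was not computed for these settings.

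The choice of control lines moved the counts most. The share of all tested probe sets called was not computed for these settings. Between control lines of different experiments that share was 29.3% to 39.3%. Against all 4 control lines, and so across experiments, the members called were 14 (RNAi-A1), 21 (RNAi-A3), 11 (RNAi-A2), 16 (RNAi-B1), 35 (RNAi-C1), 52 in both HSP90.1-TDNA and HSP90.3-TDNA, 56 for HSP90.2-TDNA and 60 for the mutant hsp90.2-3, and the mitochondrial medians became -0.356 (RNAi-A2), -0.047 (RNAi-C1), 0.066 (HSP90.2-TDNA), 0.432 (HSP90.1-TDNA) and 0.523 (hsp90.2-3). Against Control-1 alone, or Control-3 alone, RNAi-A2 and RNAi-B1 had 0, and against Control-3 alone RNAi-C1 had 4.

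With Benjamini-Hochberg adjusted p, the methods' t-test gave 2 for RNAi-C1, 0 for hsp90.2-3, 3 for RNAi-C1 against the other RNAi lines, 46 for Col-0 against the experiment 2 controls, 0 for Col-0 against Control-2 and 15 for Control-2 against the experiment 2 controls. Unadjusted with 1.5-fold it gave 1 (RNAi-A3, background 0.299%), 2 (RNAi-A2, 2.6%), 3 (RNAi-B1, 2.51%), 12 (RNAi-C1, 4.5%), 2 (HSP90.2-TDNA, 0.383%) and 1 (Control-3, 0.964%). Between lines it gave 3 (RNAi-A3 against RNAi-A1, 0.509%), 23 (RNAi-C1 against the other RNAi lines, 4.57%) and 5 (hsp90.2-3 against HSP90.2-TDNA, 1.8%). For the adjusted counts of this t-test the share of all tested probe sets was not computed.

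Samples of different lines share only a number: deviations of same-numbered samples correlated above 0.1 in 0 of 6, 10 of 26 and 12 of 30 pairs in experiments 1, 2 and 3, and 0 of 6, 11 of 14 and 11 of 15 samples correlated best with their own number (hsp90.2-3 taken with experiment 3), a hint from the data and not the design. With 2 samples a line in experiment 1, both numbers give the same value for each pair of lines, so its 6 pairs are not independent. The share expected without pairing was not computed. With the replicate block the members called were 0 for RNAi-A2, 14 for RNAi-C1, 0 for hsp90.2-3, 26 for RNAi-C1 against the other RNAi lines and 1 for hsp90.2-3 against HSP90.2-TDNA. Over all 16703 tested probe sets the block called 126, 1551, 1587, 1374 and 551 in these comparisons, in that order.

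Leaving out 1 sample at a time, the members called ranged from 0 to 1 for RNAi-A2, RNAi-B1, hsp90.2-3 and hsp90.2-3 against HSP90.2-TDNA, from 2 (without RNAi-C1 sample 1) to 10 (without Control-1 sample 2) for RNAi-C1, from 1 (without RNAi-C1 sample 1) to 29 (without RNAi-A2 sample 2) for RNAi-C1 against the other RNAi lines, from 32 (without Control-2 sample 1) to 48 for Col-0 against Control-2 and from 10 (without Control-2 sample 2) to 30 for Control-2 against the experiment 2 controls, with 12 there without Control-2 sample 1. RNAi-C1 had 4 without Control-1 sample 3 or RNAi-C1 sample 2. The share of all tested probe sets called was not computed for these omissions. Chloroplast medians ranged from -0.575 to 0.352 for RNAi-A2 and from -0.46 to 0.044 for Control-3, and the mitochondrial median of RNAi-A2 from -0.507 to 0.254. Where a line was left with 1 sample, it was taken to vary like the other lines. Signals under the filter level and 2 or 3 samples a line limit what could be called.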
